A study of Drosophila melanogaster with 8 samples.

Results

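The genes described here are orb, orb2, yps, enc, 4E-T, twin and Rbp9, 7 of the 522 Drosophila melanogaster genes with 2 or more poly(A) sites in the deposited tables. They were picked by name as translation regulators of the germline, with earlier results of these data known, and each has 1 entry with 2 sites. The libraries were QuantSeq forward libraries, which read the 3' ends of polyadenylated RNA, from whole testes of bam mutant males, 150 pairs of testes per library. All 4 groups carried the nosGal4 and bamGal4 drivers and the bam86 and bam1 alleles, with crosses kept for 3 days at 25 degrees and progeny raised at 29 degrees. Of 3 overexpression groups, the first carried UAS>cbc-V5, the second UAS>PCF11-RF-HA and the third both transgenes on the second chromosome, against controls with a wild-type second chromosome and no UAS transgene. Each group had 2 libraries. The controls hold no transgene, so a change due to a particular factor and a change due to carrying any UAS transgene cannot be told apart.

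Germ cells of bam mutants keep dividing as spermatogonia and do not become spermatocytes. Cbc, the fly Clp1, and PCF11 belong to the machinery that cleaves nascent transcripts at their 3' ends, and the choice between 2 poly(A) sites sets how much 3' UTR a transcript keeps. Proteins bound to 3' UTRs control when germline mRNAs are translated. Orb and Orb2 are members of the CPEB family, which binds 3' UTR elements and acts with poly(A) tail length. Orb is best known from oogenesis, where it also acts on its own mRNA through its 3' UTR, and Orb2 is needed in the testis for meiosis and spermatid differentiation. Yps is a Y-box protein found with Orb in ovarian mRNA particles, and Encore, the product of enc, is a large germline protein required in oogenesis. Rbp9 is an RNA-binding protein of the ELAV/Hu family needed for differentiation of germline cysts in the ovary. 4E-T binds the cap-binding protein eIF4E, and Twin is the CCR4 deadenylase that shortens poly(A) tails.

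All 14 listed windows of these genes lie in annotated 3' UTRs. Positions are given as in the authors' tables, on BDGP6, and each 30 bp window ends at the listed site on the transcript's downstream side. For orb (FBgn0004882, minus strand) the proximal window is chr3R:23265654-23265684 and the distal window chr3R:23264647-23264677, which leave 3' UTRs of 199 and 1206 bases. In yps (FBgn0022959, minus strand) the windows are chr3L:12121679-12121709 and chr3L:12121460-12121490, for 3' UTRs of 985 and 1204 bases. In enc (FBgn0004875, plus strand) they are chr3L:3840205-3840235 and chr3L:3841203-3841233, for 547 and 1545 bases. The distal enc site lies within the annotated 3' UTR of 1 of its 7 transcripts, and 1 bp past the nearest annotated transcript end.

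The sites of orb2 (FBgn0264307, minus strand) have windows chr3L:8941346-8941376 and chr3L:8940320-8940350. Both lie within the annotated gene CG43783 on the same strand, so reads of the 2 genes cannot be told apart. The windows of twin (FBgn0011725, minus strand) are chr3R:24197784-24197814 and chr3R:24197641-24197671, for 3' UTRs of 652 and 795 bases. The windows of 4E-T (FBgn0052016, minus strand) are chr4:951696-951726 and chr4:951559-951589, for 143 and 280 bases. The windows of Rbp9 (FBgn0010263, plus strand) are chr2L:2964273-2964303 and chr2L:2964826-2964856. The distal Rbp9 site gives a 3' UTR of 1470 bases and the proximal site 182 to 917, depending on the transcript. Sites lie 1007 bp apart in orb, 1026 in orb2, 998 in enc, 553 in Rbp9, 219 in yps, 143 in twin and 137 in 4E-T. Spacing was 500 bp or more in 4 of these 7 genes and in 42.0% of the 529 entries.

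**Figure D1:**
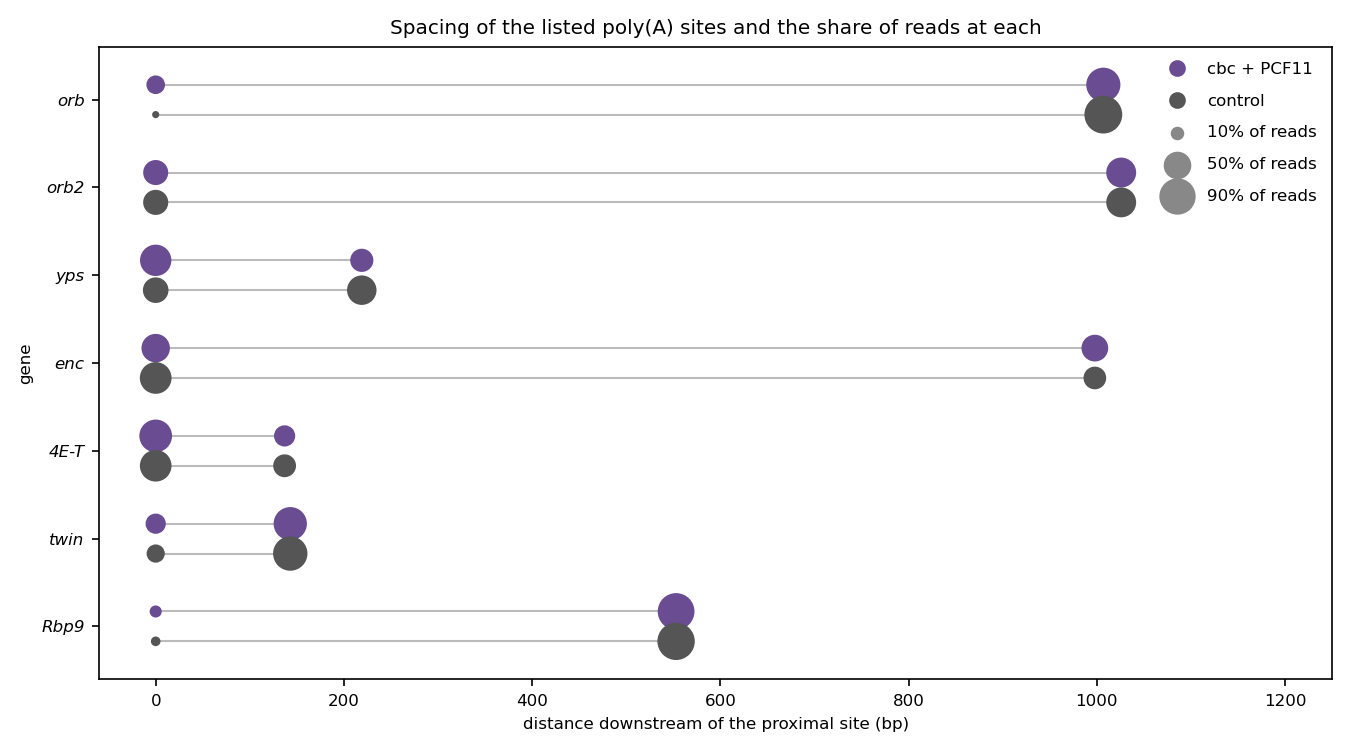
Distance of the distal site from the proximal site (x axis, bp) in the 7 genes, with circle areas that give the mean percentage of a gene's reads at each site in 2 libraries with both factors (upper line of each gene) and 2 control libraries (lower line). The proximal circle of orb stands for 21.0% of reads with both factors and 1.96% in the controls.

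Reads at all listed sites came to 287046 and 244017 with cbc, 251163 and 238162 with PCF11, 296166 and 287828 with both, and 258161 and 333675 in the controls. These totals cover listed sites only. Duplicates differed by more than counting error, most in the controls, where the chi-square of site counts over its degrees of freedom was 13.4, against 6.02 to 10.1 in the other groups. The 2 control libraries also stand apart from each other at particular sites. At orb the proximal window held 2 reads in control library 1 and 41 in control library 2, and at orb2 it held 20 and 118. The labels call the libraries duplicates of a genotype and do not name separate cultures, so the p-values speak only of library-to-library spread, which may be technical. The tables list neither cbc nor Pcf11, and overexpression itself was not analysed here. Neither the 5 germ cell markers nor the 15 spermatocyte markers looked for are among the listed genes, so the tissue label was not checked against them.

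The first comparison asked whether overexpression moved reads between the 2 sites of each gene. Proximal usage of orb and yps was higher with PCF11 and with both factors, and the other 5 genes did not pass the test in any comparison with the control. Proximal usage means the share of reads, in percent, at the site nearer the stop codon. It was tested by edgeR (quasi-likelihood) with p-values adjusted by the Benjamini-Hochberg method over all 516 entries tested and a threshold of 0.05, and an entry under it is called. The 3 comparisons share the same control libraries.

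In orb, 58 of 608 and 82 of 593 reads were proximal with cbc, 45 of 419 and 84 of 370 with PCF11, 116 of 490 and 72 of 394 with both, and 2 of 877 and 41 of 1108 in the controls. As proximal usage this was 9.54% and 13.8% with cbc, 10.7% and 22.7% with PCF11, 23.7% and 18.3% with both, and 0.228% and 3.70% in the controls. All 6 overexpression libraries lay above both controls. PCF11 overlapped both other overexpression groups, and both factors stood above cbc. Control library 1 had a 95% exact binomial interval of 0.0276% to 0.821%, and control library 2 one of 2.67% to 4.99%. These intervals cover counting error within a library only. Reads carried no molecular identifiers, so copies of the same molecule could not be set apart and the intervals may be too narrow.

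Mean orb proximal usage was 11.7% ± 3.03 with cbc, 16.7% ± 8.46 with PCF11, 21.0% ± 3.82 with both and 1.96% ± 2.46 in the controls (SD, n = 2 libraries each). The log2 odds ratio over the control was 3.43 ± 0.89 with PCF11 (approximate SE; edgeR adjusted p = 0.042) and 3.90 ± 0.88 with both (edgeR adjusted p = 0.0276). With cbc it was 2.88 ± 0.88, short of the threshold by edgeR (adjusted p = 0.0839) and past it by DESeq2 (adjusted p = 0.0021).

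The controls held 43 proximal orb reads in all, 41 of them in control library 2, and the orb calls changed when libraries were left out. With PCF11, leaving out any library other than control library 2 ended the call. The log2 odds ratio was then 2.31 without control library 1 (edgeR adjusted p = 0.0625), 4.07 and 2.78 without PCF11 library 1 and 2, 3.45 and 3.46 without cbc library 1 and 2, and 3.43 without either library of both factors. With both factors, the call ended without cbc library 1 or 2 (3.92 and 3.93) and without library 1 or 2 of both factors (3.66 and 4.13). It was kept without control library 1, where the log2 odds ratio was 2.78. With only the 4 libraries compared, the log2 odds ratio was 3.45 with PCF11 and 3.94 with both (edgeR adjusted p = 0.15 and 0.0697). With cbc the value was 1.76 without control library 1 (edgeR adjusted p = 0.114) and 5.76 without control library 2 (edgeR adjusted p = 0.0205). Without control library 2 it was 6.31 with PCF11 and 6.77 with both, so the size of the orb shift differed by over 1.5 times with the control library kept.

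In yps, 2319 of 4642 and 2171 of 3971 reads were proximal with cbc, 2816 of 4122 and 3004 of 4451 with PCF11, 3533 of 5615 and 3632 of 5276 with both, and 2590 of 5610 and 2893 of 7486 in the controls. Proximal usage was 50.0% and 54.7% with cbc, 68.3% and 67.5% with PCF11, 62.9% and 68.8% with both, and 46.2% and 38.6% in the controls. The controls were lowest, cbc stood above them without overlap, and PCF11 and both factors stood above cbc and overlapped each other. The widest 95% exact binomial interval among the 8 libraries was 53.1% to 56.2%, in cbc library 2.

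Mean yps proximal usage was 52.3% ± 3.33 with cbc, 67.9% ± 0.584 with PCF11, 65.9% ± 4.19 with both and 42.4% ± 5.32 in the controls (SD, n = 2 libraries each). Over the control the log2 odds ratio was 1.53 ± 0.22 with PCF11 (edgeR adjusted p = 0.00536) and 1.40 ± 0.22 with both (edgeR adjusted p = 0.011). With cbc it was 0.58 ± 0.22, short of the threshold by edgeR (adjusted p = 0.145) and past it by DESeq2 (adjusted p = 0.0275). Without control library 2 the cbc value was 0.36. The PCF11 call held in all 14 alternatives run. Among them, the fit of the most distal site against the rest reuses the same counts in yps, which has 2 sites. The call with both factors ended without library 2 of both factors (1.21, edgeR adjusted p = 0.0838) and when only the 4 libraries compared entered the fit (1.40, edgeR adjusted p = 0.0643).

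**Figure D2:**
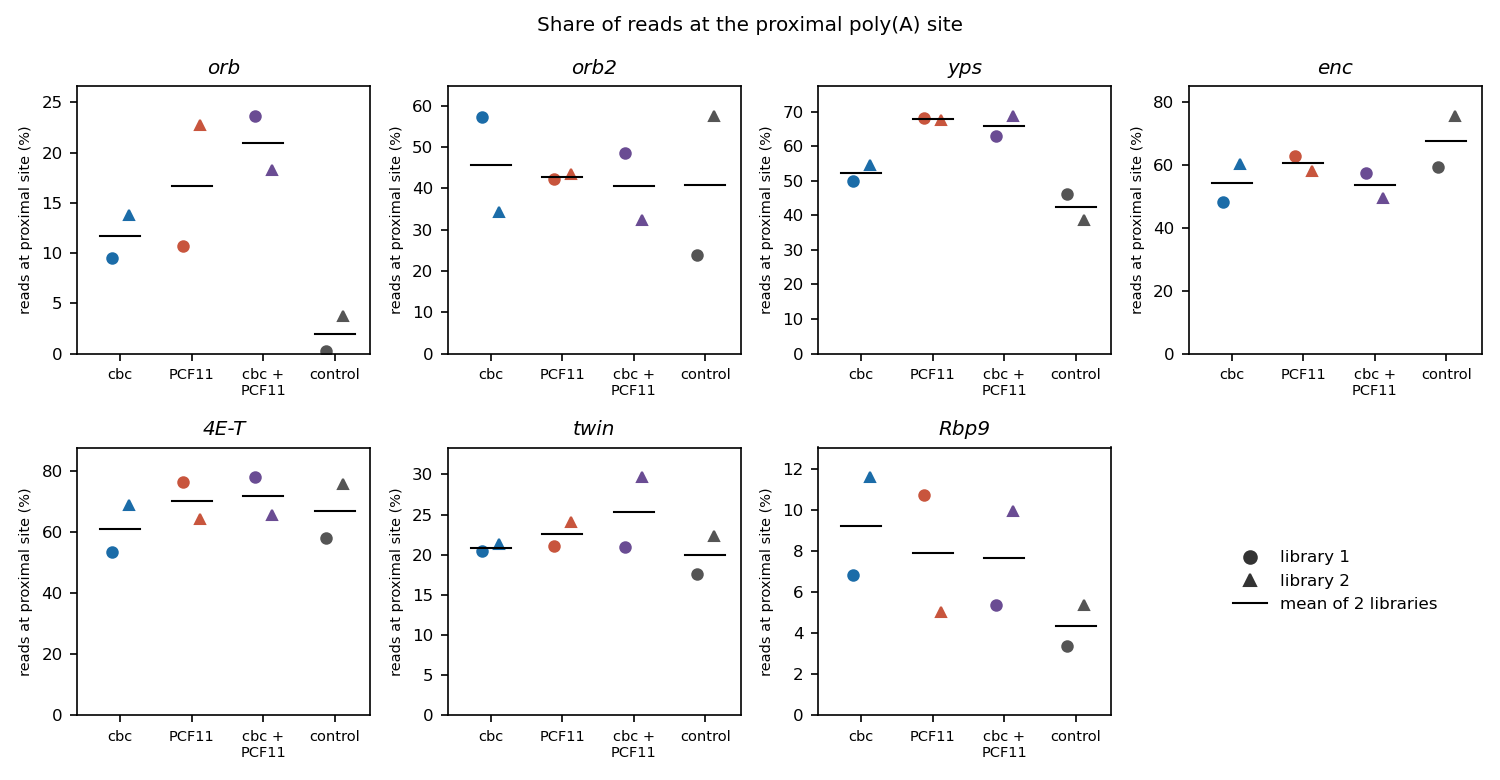
Percentage of reads at the proximal poly(A) site (y axis, from 0, a scale per gene) in each library of the 7 genes; symbols are libraries and lines are means of 2 libraries. All 6 overexpression libraries lie above both controls in orb (9.54% to 23.7%, against 0.228% and 3.70%) and in yps (50.0% to 68.8%, against 46.2% and 38.6%). The share of all entries with all 6 above both controls was not counted.

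In enc proximal usage was 48.2% and 60.3% with cbc, 62.8% and 58.1% with PCF11, 57.5% and 49.3% with both, and 59.4% and 75.5% in the controls. The libraries with both factors lay below both controls, and the other groups overlapped the controls. The share of all entries below both controls in proximal usage is not given here. The log2 odds ratio was -0.84 ± 0.41 with cbc, -0.47 ± 0.41 with PCF11 and -0.89 ± 0.41 with both, and none passed by edgeR (adjusted p = 0.244, 0.514 and 0.218). With cbc, PCF11 and both the values were -1.38, -1.01 and -1.43 without control library 1, and -0.30, 0.06 and -0.35 without control library 2. With cbc it was -0.49 without cbc library 1.

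Rbp9 had 41 and 61 proximal reads with cbc, 52 and 29 with PCF11, 34 and 61 with both, and 18 and 42 in the controls. Its proximal usage was 6.83% and 11.6% with cbc, 10.7% and 5.04% with PCF11, 5.35% and 9.97% with both, and 3.36% and 5.35% in the controls. Both cbc libraries lay above both controls, and the other groups overlapped them. Its log2 odds ratio with cbc was 1.12 ± 0.56, which did not pass (edgeR adjusted p = 0.257) and was 0.69 without cbc library 2.

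In twin proximal usage was 20.4% and 21.4% with cbc, 21.1% and 24.1% with PCF11, 20.9% and 29.7% with both, and 17.6% and 22.3% in the controls. Each overexpression group overlapped the controls. Its log2 odds ratio with both factors was 0.43, with an approximate 95% interval of -0.31 to 1.17. It was 0.22 and 0.65 without control library 1 and 2, and 0.76 and 0.09 without library 1 and 2 of both factors.

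4E-T had 91 to 193 reads per library, and its proximal usage was 53.5% and 68.9% with cbc, 76.5% and 64.2% with PCF11, 78.1% and 65.8% with both, and 58.2% and 75.8% in the controls. The groups overlapped. Its log2 odds ratios were -0.37, 0.23 and 0.32 with cbc, PCF11 and both, and the interval with both factors ran from -1.49 to 2.14. With an interval this wide, small shifts could not be detected.

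In orb2, with 76 to 205 reads per library, proximal usage was 57.1% and 34.2% with cbc, 42.2% and 43.5% with PCF11, 48.5% and 32.4% with both, and 23.8% and 57.6% in the controls. All 6 overexpression libraries lay between the 2 controls. Its log2 odds ratio with cbc was 0.32 with an approximate 95% interval of -1.81 to 2.45.

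None of the 7 genes was called in proximal usage with cbc, where 7.56% of 516 entries were called. With PCF11 2 of 7 were called, against 10.5% of entries, and with both factors 2 of 7, against 10.3%. The 2 called genes are orb and yps in both comparisons. The median log2 odds ratio of the 7 genes was 0.32 with cbc, 0.23 with PCF11 and 0.43 with both, beside 0.14, 0.36 and 0.27 over all entries tested. Both cbc libraries lay above both controls in 3 of the 7 genes, where 28.5% of 523 entries did. The like counts were 2 of 7 with PCF11, beside 36.3% of entries, and 2 of 7 with both factors, beside 32.5%. How many entries had every overexpression library above both controls, as orb and yps did, was not counted.

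**Figure D3:**
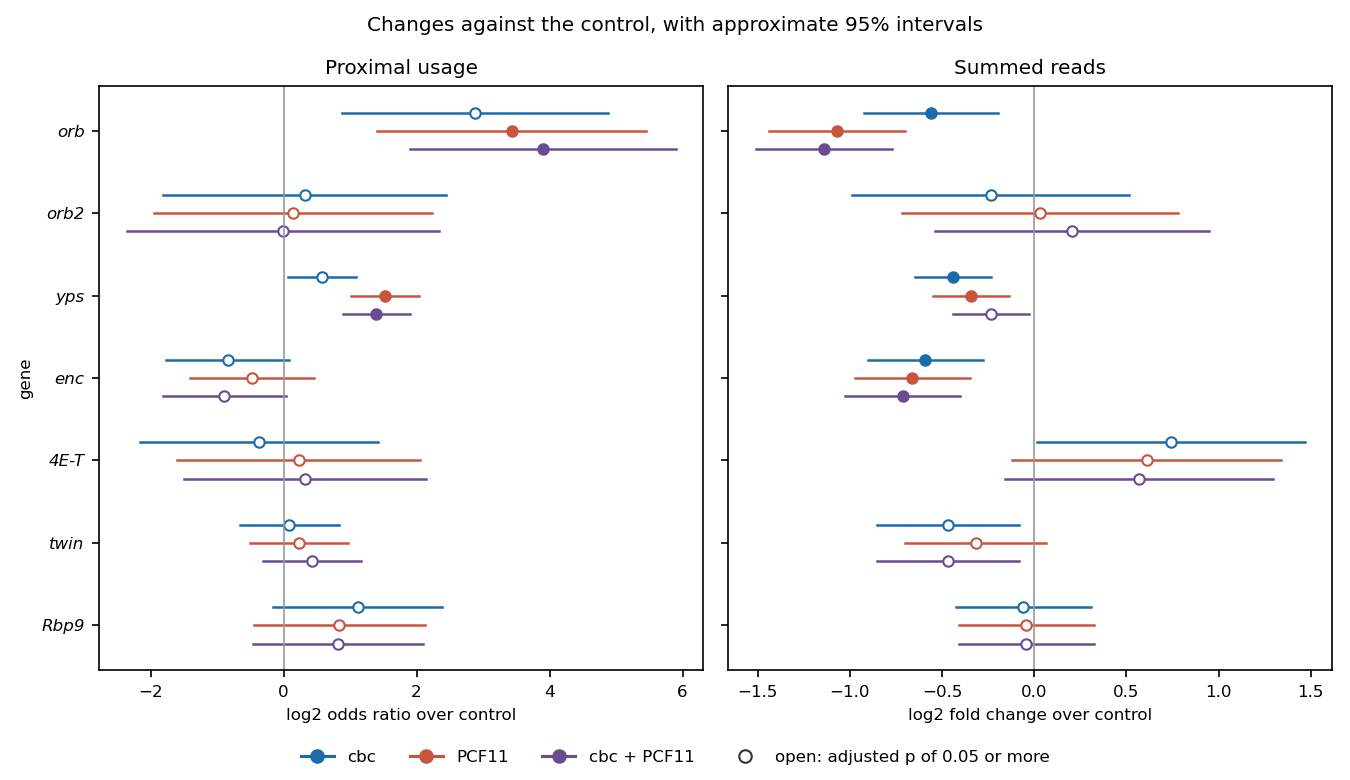
Log2 odds ratio of proximal usage (left) and log2 fold change of summed reads (right) over the control for the 7 genes with cbc, PCF11 and both factors; bars are approximate 95% intervals and filled circles passed an adjusted p of 0.05. Filled circles at the left are those of orb and yps with PCF11 and with both factors, and at the right those of orb, yps and enc below 0.

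The overexpression groups were also compared with each other. Proximal usage of yps was 52.3% with cbc and 67.9% with PCF11, a log2 odds ratio of -0.95 with an approximate 95% interval of -1.45 to -0.44. It did not pass over all entries by edgeR (adjusted p = 0.232) and passed by DESeq2 (adjusted p = 0.000528). Both factors over cbc gave 0.82 in yps, with an interval of 0.31 to 1.32 (edgeR adjusted p = 0.36, DESeq2 adjusted p = 0.00835). Both factors over PCF11 gave -0.13, with an interval of -0.63 to 0.38. For orb the same comparisons gave -0.55 for cbc over PCF11, 1.02 for both factors over cbc and 0.47 for both factors over PCF11, and each interval included 0. By edgeR 0 of the 7 genes and 0 of all 516 entries were called in these 3 comparisons (0% each). How many of all entries DESeq2 called in them was not counted. At an unadjusted p under 0.05, edgeR had 44, 32 and 18 entries for cbc over PCF11, both over cbc and both over PCF11. Only yps among the 7 genes was there, in the comparisons of cbc with PCF11 and of both factors with cbc.

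The interaction term asks whether both factors together differ from the sum of their separate effects on the log2 odds scale. It was -2.42 in orb, with an interval of -5.13 to 0.30 (edgeR adjusted p = 0.354). Leaving out control library 1 or 2 gave -1.30 and -5.29 in orb (edgeR adjusted p = 0.41 and 0.0663). The term was -0.71 in yps, with an interval of -1.42 to 0.01 (edgeR adjusted p = 0.308). It was called in 0 of the 7 genes and in 1.74% of entries by edgeR. At an unadjusted p under 0.05, edgeR had 0 of the 7 genes, beside 83 of all 516 entries.

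A shift in usage can come from a gain at 1 site, a loss at the other or both, so reads were also compared site by site. Orb lost reads at its distal site and gained them at its proximal site, a gain that passed by edgeR and not by DESeq2. Yps lost reads at its distal site and gained them at its proximal site with both factors. Enc lost reads at its proximal site. Values are in RPM, reads per 1000000 listed reads of the library, and tests used edgeR with TMM factors over 962 windows. All window and summed values are relative to the listed genes. How many of all windows or entries lay wholly above or below both controls in RPM was not counted.

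At the distal site of orb there were 1916 and 2094 RPM with cbc, 1489 and 1201 with PCF11, 1263 and 1119 with both, and 3389 and 3198 in the controls. Every overexpression library was below both controls, and both groups with PCF11 lay below cbc alone. The log2 fold change was -0.71 ± 0.20 with cbc (edgeR adjusted p = 0.0129), -1.30 ± 0.20 with PCF11 (edgeR adjusted p = 0.000142) and -1.46 ± 0.20 with both (edgeR adjusted p = 3.38e-05). The cbc call ended when cbc library 1 or 2 was left out (-0.69 and -0.81, edgeR adjusted p = 0.089 and 0.0566).

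At the proximal site orb had 202 and 336 RPM with cbc, 179 and 353 with PCF11, 392 and 250 with both, and 7.75 and 123 in the controls. Every overexpression library was above both controls, and the 3 groups overlapped. Against the control the log2 fold change was 1.97 ± 0.66 with cbc (edgeR adjusted p = 0.0379), 1.94 ± 0.66 with PCF11 (edgeR adjusted p = 0.0418) and 2.24 ± 0.66 with both (edgeR adjusted p = 0.0167). Mean levels at the proximal site were 269, 266 and 321 RPM with cbc, PCF11 and both, and 65.3 in the controls. At the distal site they were 2005, 1345 and 1191, and 3294 in the controls, so the mean loss in reads there was larger than the proximal gain.

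These proximal calls passed by edgeR and not by DESeq2 (adjusted p = 0.216, 0.219 and 0.121). Without control library 1 the log2 fold changes were 1.11, 1.09 and 1.38 with cbc, PCF11 and both, and none passed by edgeR (adjusted p = 0.175, 0.185 and 0.0837). Without control library 2 they were 5.04, 5.01 and 5.31, and all 3 passed by edgeR (adjusted p = 0.00351, 0.0036 and 0.00213). The cbc call also ended without cbc library 1 or 2 (2.25 and 1.53) or PCF11 library 1 or 2 (1.97 and 1.93). The PCF11 call ended without the same libraries, at 1.90 and 1.90 without cbc library 1 or 2 and at 2.34 and 1.36 without PCF11 library 1 or 2. The call with both factors ended without PCF11 library 2 (2.22) or library 1 of both factors (1.87).

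At the distal site of yps there were 8093 and 7377 RPM with cbc, 5200 and 6076 with PCF11, 7030 and 5712 with both, and 11698 and 13765 in the controls. Every overexpression library was below both controls. On the log2 scale the change was -0.72 ± 0.15 with cbc (edgeR adjusted p = 0.00173), -1.19 ± 0.15 with PCF11 (edgeR adjusted p = 1.26e-05) and -0.99 ± 0.15 with both (edgeR adjusted p = 7.95e-05). These 3 calls held in all 12 alternatives run.

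At the proximal site of yps there were 8079 and 8897 RPM with cbc, 11212 and 12613 with PCF11, 11929 and 12619 with both, and 10033 and 8670 in the controls. PCF11 and both factors stood above the controls, and cbc overlapped them. Its log2 fold change was 0.40 ± 0.13 with both (edgeR adjusted p = 0.0259), 0.34 ± 0.13 with PCF11 (edgeR adjusted p = 0.0648) and -0.14 ± 0.13 with cbc (edgeR adjusted p = 0.502). The call with both factors ended without control library 2 (0.31) or library 2 of both factors (0.33). The PCF11 value passed without control library 1 (0.44, edgeR adjusted p = 0.0396).

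In enc the loss was at the proximal site, with 1850 and 1975 RPM with cbc, 2086 and 2045 with PCF11, 1840 and 1633 with both, and 3358 and 3848 in the controls. Every overexpression library was below both controls. The log2 fold change was -0.91 ± 0.19 with cbc (edgeR adjusted p = 0.00157), -0.81 ± 0.19 with PCF11 (edgeR adjusted p = 0.00373) and -1.04 ± 0.19 with both (edgeR adjusted p = 0.000392), and all 3 calls held in all 12 alternatives run. At the distal site enc had 1986 and 1303 RPM with cbc, 1238 and 1474 with PCF11, 1361 and 1682 with both, and 2297 and 1247 in the controls, and the groups overlapped. The distal log2 fold changes were -0.09, -0.39 and -0.21 with cbc, PCF11 and both, and none passed by edgeR (adjusted p = 0.846, 0.328 and 0.623).

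**Figure D4:**
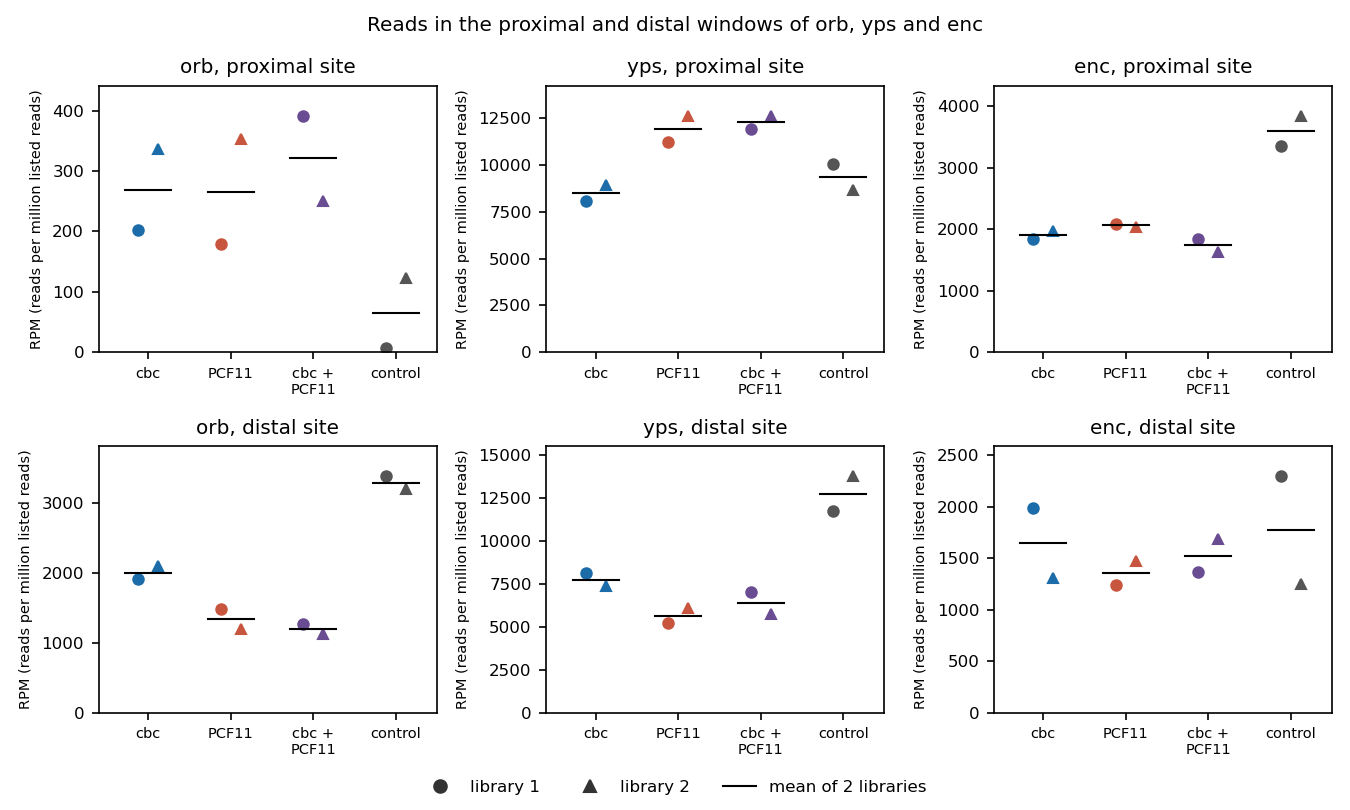
RPM (y axis, from 0) at the proximal (upper) and distal (lower) sites of orb, yps and enc in each library; symbols are libraries and lines are means of 2 libraries. In orb the distal site had 1119 to 2094 in the overexpression libraries, against 3389 and 3198 in the controls, and in enc the proximal site had 1633 to 2086, against 3358 and 3848.

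Of the 14 windows of the 7 genes, 4 were called with cbc, beside 20.9% of all windows, 4 with PCF11, beside 21.9%, and 5 with both, beside 28.5%. These are the windows of orb, yps and enc named above. No window of orb2, 4E-T, twin or Rbp9 passed by edgeR.

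Reads summed over both sites give the level of each gene among the listed genes. Orb and enc were lower in all 3 overexpression groups, and yps was lower with cbc and with PCF11. Testes were sequenced in bulk, so fewer cells of a type and less RNA per cell cannot be told apart. Summed reads were tested by edgeR over 523 entries.

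Orb had 2118 and 2430 RPM with cbc, 1668 and 1554 with PCF11, 1654 and 1369 with both, and 3397 and 3321 in the controls. The controls were highest, cbc was next, and PCF11 and both factors were lowest and overlapped each other. Against the control the log2 fold change was -0.56 ± 0.17 with cbc (edgeR adjusted p = 0.0249), -1.07 ± 0.17 with PCF11 (edgeR adjusted p = 0.000369) and -1.14 ± 0.17 with both (edgeR adjusted p = 0.000129). The calls with PCF11 and with both factors held in all 14 alternatives run. The cbc call ended without control library 1 or 2 (-0.55 and -0.57) and without cbc library 1 or 2 (-0.50 and -0.70).

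Enc had 3836 and 3278 RPM with cbc, 3325 and 3519 with PCF11, 3201 and 3314 with both, and 5655 and 5095 in the controls. Every overexpression library was below both controls, and the 3 groups overlapped or adjoined each other. On the log2 scale the change was -0.59 ± 0.15 with cbc (edgeR adjusted p = 0.00746), -0.66 ± 0.15 with PCF11 (edgeR adjusted p = 0.00395) and -0.71 ± 0.15 with both (edgeR adjusted p = 0.00182). The cbc call ended without cbc library 2 (-0.52, edgeR adjusted p = 0.0952) and the PCF11 call without PCF11 library 1 (-0.63, edgeR adjusted p = 0.0552).

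Yps had 16172 and 16273 RPM with cbc, 16412 and 18689 with PCF11, 18959 and 18330 with both, and 21731 and 22435 in the controls. Every overexpression library was below both controls. Its log2 fold change was -0.44 ± 0.10 with cbc (edgeR adjusted p = 0.00333), -0.34 ± 0.10 with PCF11 (edgeR adjusted p = 0.018) and -0.24 ± 0.10 with both (edgeR adjusted p = 0.0706). The PCF11 call ended without control library 2 (-0.31), without PCF11 library 1 (-0.26) and with only the libraries compared (-0.35). The value with both factors passed without PCF11 library 2 (-0.25, edgeR adjusted p = 0.0472).

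Twin had 2665 and 2610 RPM with cbc, 3261 and 2649 with PCF11, 2775 and 2484 with both, and 3083 and 4223 in the controls. The cbc libraries and those with both factors lay below both controls. The log2 fold change was -0.47 ± 0.18 with cbc (edgeR adjusted p = 0.0753), -0.32 ± 0.18 with PCF11 (edgeR adjusted p = 0.228) and -0.47 ± 0.18 with both (edgeR adjusted p = 0.0582). By DESeq2 it passed with cbc (adjusted p = 0.045) and with both (adjusted p = 0.0387). Without control library 1 it passed by edgeR in all 3 comparisons, at -0.69 with cbc, -0.53 with PCF11 and -0.68 with both. Without control library 2 it was -0.21, -0.06 and -0.21 (edgeR adjusted p = 0.46, 0.869 and 0.429). With PCF11 it was -0.49 and -0.19 without PCF11 library 1 and 2.

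4E-T had 540 and 619 RPM with cbc, 609 and 458 with PCF11, 355 and 671 with both, and 426 and 273 in the controls. The cbc and PCF11 libraries were above both controls, and those with both factors overlapped them. Against the control the log2 fold change was 0.74 ± 0.34 with cbc, 0.61 ± 0.34 with PCF11 and 0.57 ± 0.34 with both, and none passed by edgeR (adjusted p = 0.133, 0.221 and 0.221). Without control library 2 the values were 0.46 with cbc, 0.33 with PCF11 and 0.28 with both, and without control library 1 they were 0.95 with PCF11 and 0.91 with both. Without PCF11 library 1 the PCF11 value was 0.38. With both factors it was 0.95 without library 1 of both factors and 0.0069 without library 2.

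Rbp9 had 2090 and 2156 RPM with cbc, 1927 and 2414 with PCF11, 2147 and 2126 with both, and 2076 and 2353 in the controls. The groups overlapped, and the log2 fold changes were -0.06, -0.04 and -0.04 with cbc, PCF11 and both. The approximate 95% interval with PCF11 ran from -0.41 to 0.33. Orb2 ranged from 311 to 585 RPM in the overexpression libraries and had 325 and 614 in the controls. Its groups overlapped, and the interval with cbc ran from -0.99 to 0.52.

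**Figure D5:**
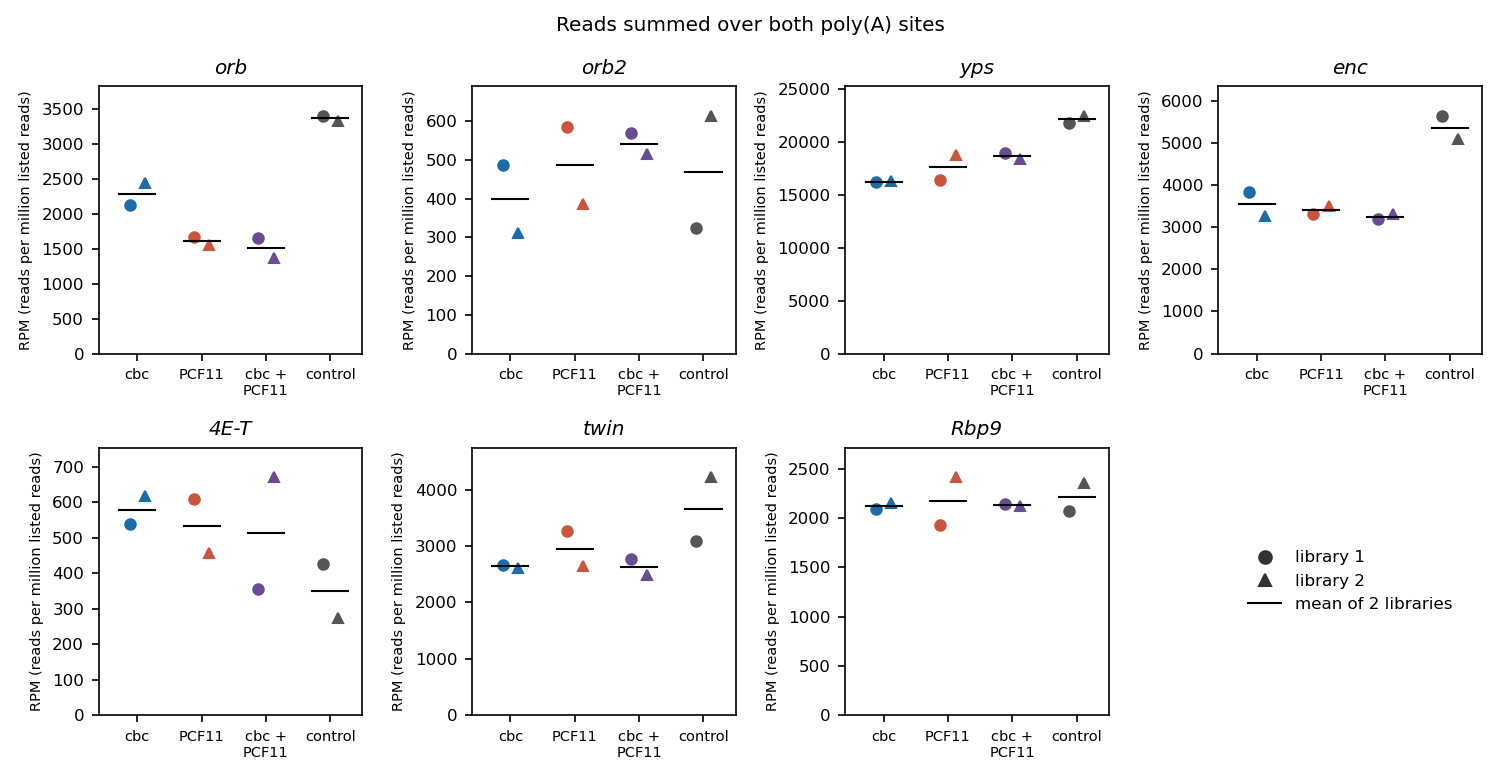
RPM summed over both sites (y axis, from 0, a scale per gene) in each library of the 7 genes; symbols are libraries and lines are means of 2 libraries. In orb, yps and enc all 6 overexpression libraries lie below both controls, and in Rbp9 and orb2 the groups overlap. The share of all entries that lie below both controls in this way was not counted.

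Of the 7 genes, 3 were lower with cbc, where 10.3% of 523 entries were called lower and 23.5% were called in either direction. With PCF11 3 were lower, beside 9.37% of entries lower and 21.2% in either direction. With both factors 2 were lower, beside 14.3% lower and 32.7% in either direction. None of the 7 genes was called higher in summed reads by edgeR. The median log2 fold change of the 7 genes was -0.44 with cbc, -0.32 with PCF11 and -0.24 with both, beside -0.0017, 0.02 and 0.04 over all entries.

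Of 12 hub and cyst cell markers 2 are among the listed genes, the transcription factors chinmo and zfh1. Their summed level was 5745 and 6901 RPM with cbc, 4969 and 5358 with PCF11, 4903 and 5142 with both, and 6403 and 8278 in the controls. Most of this sum is chinmo, with a control mean of 5919 RPM, beside 1422 for zfh1. Chinmo was lower with PCF11 (log2 fold change -0.63, edgeR adjusted p = 0.0115) and with both (-0.73, edgeR adjusted p = 0.00322). Zfh1 did not pass in summed reads, at 0.28, -0.15 and 0.05 with cbc, PCF11 and both (edgeR adjusted p = 0.331, 0.63 and 0.888). Zfh1 was lower in proximal usage with both factors (log2 odds ratio -4.50, edgeR adjusted p = 0.0458). Its proximal usage was 0.225% and 0.243% with both factors and 8.21% and 3.74% in the controls. The values with both factors are near the floor of counts, so the size of this ratio is uncertain. The markers of germ cells, spermatocytes, spermatids and of sheath, muscle and fat had no listed gene. The part of cell composition in the summed reads of orb, yps and enc was not tested.

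Related genes were taken from 4 lists of factors. The list sizes count gene names, and some genes are in them under alternative names or spellings. Of 56 germline RNA-binding translation regulators 7 are listed, of which 5 are orb, orb2, yps, enc and Rbp9 and the others are Imp and heph. Imp, an RNA-binding protein that supports the testis niche, had a log2 fold change in summed reads of -0.62 with cbc (edgeR adjusted p = 0.00128), -0.80 with PCF11 (edgeR adjusted p = 0.000236) and -0.86 with both (edgeR adjusted p = 7.97e-05). Heph, the fly polypyrimidine tract-binding protein, had -0.53 with cbc (edgeR adjusted p = 0.00593), -0.68 with PCF11 (edgeR adjusted p = 0.000973) and -0.79 with both (edgeR adjusted p = 0.000203). In the list as a whole 5, 5 and 4 of 7 genes were lower with cbc, PCF11 and both, beside 10.3%, 9.37% and 14.3% of all entries, and 0 were higher. These counts repeat the calls of orb, enc and yps above, and those of Imp and heph are the others. In proximal usage 0, 2 and 2 of 7 were called, beside 7.56%, 10.5% and 10.3% of all entries, and the called genes are again orb and yps.

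Of 35 deadenylation, decapping and poly(A) tail factors 3 are listed, which are twin, Patr-1 and nonC. Patr-1, a decapping activator, had a higher summed level in each comparison, with log2 fold changes of 1.49 with cbc, 1.72 with PCF11 and 1.90 with both (edgeR adjusted p = 0.0013, 0.000522 and 0.000144). NonC, the kinase of nonsense-mediated decay, was higher in proximal usage, with log2 odds ratios of 2.35, 3.63 and 3.84 with cbc, PCF11 and both (edgeR adjusted p = 0.049, 0.00892 and 0.011). Of 41 cap-binding and translation initiation factors 2 are listed, 4E-T and eIF2alpha. EIF2alpha, a subunit of the factor that brings the initiator tRNA, had a higher summed level by 0.89, 0.69 and 0.71 on the log2 scale with cbc, PCF11 and both (edgeR adjusted p = 3.06e-05, 0.000343 and 0.000162).

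Of 23 factors of 3' end processing and its elongation partners 2 are listed. TH1, which belongs to the NELF complex that pauses RNA polymerase, was higher in summed reads by 2.36, 1.81 and 1.68 on the log2 scale with cbc, PCF11 and both (edgeR adjusted p = 1.74e-05, 0.00025 and 0.000283). Its log2 odds ratios of proximal usage were 3.38, 3.13 and 3.08 (edgeR adjusted p = 0.00743, 0.0094 and 0.0135). CycT, the cyclin of the elongation kinase P-TEFb, was higher in summed reads with cbc (log2 fold change 0.92, edgeR adjusted p = 0.00746) and with both (0.73, edgeR adjusted p = 0.0241), with 0.60 with PCF11 (edgeR adjusted p = 0.0733).

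The entries whose proximal usage was most like that of orb and yps were found by the root mean square difference of the log2 odds, centred on the control mean, over the 8 libraries. For orb these were croc, CG10600 and Rop, at differences of 0.80, 1.10 and 1.18 on the log2 scale, where the median of 492 entries was 3.60. Croc had a proximal usage of 14.4% and 24.6% with cbc, 20.2% and 29.3% with PCF11, 29.5% and 15.6% with both, and 0% and 7.14% in the controls. The 0% is 0 of 55 reads, which allows a share of up to 5.45%. As in orb, control library 1 was the lowest of the 8 libraries.

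For yps they were qkr58E-2, Cul3 and Dnz1, at differences of 0.23, 0.27 and 0.29, where the median was 1.33. Cul3 had a proximal usage of 27.5% and 26.2% with cbc, 38.3% and 39.0% with PCF11, 39.8% and 38.7% with both, and 17.4% and 21.8% in the controls. Qkr58E-2 had 23.2% and 28.3% with cbc, 40.8% and 35.4% with PCF11, 33.4% and 35.7% with both, and 18.0% and 13.3% in the controls. In both genes, as in yps, cbc lay between the controls and the other 2 groups without overlap. Likeness was the rule by which these genes were found, and it is a description with no test.

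The authors' deposited table gives its own adjusted p per gene from a beta-binomial test of site use. In the authors' deposited table orb had 0.00224 with cbc, 0.00341 with PCF11 and 0.00027 with both, and yps had 0.0086, 1.2e-05 and 0.000131. In the authors' deposited table enc was under 0.05 with both factors (0.0409) and Rbp9 with cbc (0.015), while orb2, 4E-T and twin were not under 0.05 in any comparison. The authors' deposited table has 47.7% of its genes under 0.05 with cbc, 52% with PCF11 and 55% with both, so its threshold passes more genes than the tests above.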

How the data were processed

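The authors deposited raw read counts for windows at poly(A) sites, made with PolyA-miner from a list of 1098 positions, per the log of that run. The log also names windows of 30 bp, a strand setting of 0, no molecular identifiers, minimums of 10 per gene and 0.05 per site, and a beta-binomial test. Bowtie, SAMtools and dm6/BDGP6 are named in the submitters' processing notes, without versions or order. The authors' gene-level adjusted p-value was copied from their deposited result tables. Read trimming and filtering are not described in these sources.

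The control columns of the 3 tables were identical (4328 values compared, 0 different), so the 8 libraries were joined into 1082 windows in 529 entries. Proximal reads were set against all more distal reads, in a model with terms for the library, the site and the site's interaction with genotype, in edgeR 4.0.16 (R 4.3.3, quasi-likelihood, all 8 libraries). Entries needed a mean of 10 reads per library and 5 reads on each side (516 tested). Windows (962) and summed reads (523) were tested by edgeR with TMM factors at the same mean. The Benjamini-Hochberg adjustment ran over all entries or windows. Standard errors, the coefficient divided by the square root of its F, are approximate, as are the intervals made from them. Log odds for likeness used a pseudocount of 0.5. The tests were run on simulated counts with 200 changed genes before use.

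Alternatives were DESeq2 1.42.0, a replicate block, other minimums on reads, other scaling, distal usage (the most distal site against the rest), fits to the compared libraries alone, and each library left out. The replicate numbers did not pair the libraries. Sites were placed with an annotation of BDGP6 in which 16955 of 17017 matched genes (99.6%) had the authors' start and end. The genes and lists were chosen with earlier results of these data known. Named genes are the 7 genes, members of the lists that passed a test, and the 3 entries most like orb and yps.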

Additional observations from a re-analysis of the deposited data

How the results depend on the processing

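By DESeq2 more entries were called in proximal usage, 107 with cbc, 108 with PCF11 and 113 with both, against 39, 54 and 53 by edgeR. Among the 7 genes DESeq2 called 2 with cbc over the control, 1 for cbc over PCF11 and 1 for both factors over cbc, against 0 each by edgeR. How many of all entries DESeq2 called between overexpression groups was not counted, so the latter calls have no background beside them. With only the libraries compared, 24, 25 and 15 entries were called with cbc, PCF11 and both, and 1 and 0 of the 7 genes with PCF11 and both. The replicate block moved no count of called genes by over 1.5 times and changed no call of the 7 genes. With the block 26, 41 and 42 entries were called in usage, 184, 184 and 253 windows, and 112, 102 and 162 entries in summed reads. The same-numbered libraries did not deviate together, with correlations of -0.088 to 0.039, so the numbers were not taken as a pairing. The cause of these differences was not tested.

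With each library left out in turn, the entries called in usage ranged from 3 to 38 with cbc, 12 to 50 with PCF11 and 7 to 44 with both. The windows called ranged from 99 to 202, 101 to 195 and 109 to 259, and the entries called in summed reads from 67 to 128, 45 to 115 and 97 to 157. Of the 7 genes, 0 to 1, 1 to 2 and 0 to 2 were called in usage with cbc, PCF11 and both. In summed reads 1 to 3 were called with cbc and 1 to 4 with PCF11, and 2 to 4 of the 14 windows were called with cbc.

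Among the alternatives run, directions turned only in values that had not passed. Left-out libraries moved the log2 odds ratio of orb2 from -0.67 to 1.44 with cbc, -0.86 to 1.26 with PCF11 and -1.0 to 1.11 with both. For 4E-T the ranges were -0.97 to 0.19, -0.37 to 0.80 and -0.28 to 0.89, for twin with cbc -0.12 to 0.30 and for enc with PCF11 -1.01 to 0.06. Between overexpression groups, orb ranged from -1.17 to 0.12 for cbc over PCF11 and from -0.15 to 1.13 for both over PCF11, and yps from -0.32 to 0.06 for both over PCF11. The distal window of enc ranged from -0.47 to 0.40 with cbc, -0.76 to 0.10 with PCF11 and -0.58 to 0.28 with both. In summed reads orb2 ranged from -0.64 to 0.32, -0.36 to 0.58 and -0.18 to 0.76, and Rbp9 from -0.16 to 0.05, -0.23 to 0.10 and -0.14 to 0.06. By DESeq2 orb2 with PCF11 was at -0.00097. Among the 7 genes read depth was lowest in orb2 and 4E-T, with at most 205 reads per library, and the 2 controls of orb2 differed beyond counting error.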
